A study of Mus musculus with 9 samples.

Results

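The genes described here build the nuclear pore or carry cargo through it. They are the nucleoporins, the importins and exportins, and the proteins that run the cycle of the small GTPase Ran. Members were taken by symbol alone: those that begin with Nup, Ipo, Tnpo or Ranbp followed by a number, with Kpna or Kpnb, or with Xpo followed by a number or t, together with Ran, Rangap1 and Rcc1. Of the 18193 genes that had a probe set annotated to a single gene, 53 fitted this rule, with 140 probe sets between them. The rule itself uses no measured value, but it was chosen with earlier results of these data known. The level of a gene is the deposited log2 intensity of whichever of its probe sets was brightest by mean over the 9 arrays, and levels are compared between samples, never between genes. A gene was tested when it lay above the 40th percentile of its array on 2 or more arrays, which 51 of the 53 members did. The remaining members were Kpna7, an importin alpha known from oocytes and early embryos, at 4.11 to 4.49 on the 9 arrays, and Ranbp3l, a relative of Ranbp3, at 3.88 to 4.27.

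The study measured gene expression in cultured mouse cells on Affymetrix arrays. The starting cells, called preSC in the labels, are preneoplastic neuroendocrine cells grown from lungs of mice of a mixed C57BL/6 and 129/Sv background in which Adeno-Cre removed conditional alleles of Rb, p53 and p130. The 4 groups are preSC without a vector (3 arrays) and preSC that received a retrovirus carrying L-Myc, the same with C-Myc, or the same with N-Myc (2 arrays each). All 4 groups share the 3 deletions and the RPMI1640 medium with bovine growth serum, so every comparison is among cells without Rb, p53 and p130. The age of the animals, the promoter of the retroviruses and the number of mice or clones behind the cultures are not named in the labels. The labels give polyA RNA for preSC and L-Myc and total RNA for C-Myc and N-Myc. Only for L-Myc do they add that the cells became transformed.

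As background, the nuclear pore is a channel through the nuclear envelope. Its scaffold holds a central channel lined with flexible repeats that slow large molecules unless a transport receptor carries them. Rcc1 loads Ran with GTP in the nucleus, and Rangap1, helped by Ranbp1 and Ranbp2, triggers its hydrolysis in the cytoplasm. Importins release their cargo when they meet Ran-GTP, and exportins hold theirs only with it, so this gradient gives transport its direction. MYC proteins are transcription factors that bind the sequence CACGTG together with MAX and are known for raising ribosome production. That process needs ribosomal proteins imported by receptors such as Ipo4, Ipo5, Ipo7 and Tnpo1, and ribosomal subunits exported by Xpo1.

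Some properties of the arrays moved with the preSC group over all genes. The control probe sets for 18S ribosomal RNA read 12.88 to 13.91 on the 3 preSC arrays and 8.22 to 9.35 on the 6 transduced arrays. The 5′ minus 3′ signal of Actb, an index of RNA integrity, was -0.85 to -0.62 in preSC and -0.31 to -0.20 in the transduced cells. For Gapdh it was -0.13 to -0.02 against 0.16 to 0.24. The part of these differences in any comparison with preSC was not tested, and they cannot be told apart from the transduction. The 8 neuroendocrine markers used were above the array's 40th percentile on every array. Their summed level was 14.29 to 14.42 in preSC and 14.03 to 14.21 in the transduced cells, but single markers moved in opposite directions. Chga, Chgb, Ncam1 and Scg2 were lower on every transduced array than on any preSC array, and Syp and Uchl1 were higher. Scg2 read 11.66 to 12.07 in preSC and 9.21 to 10.70 in the transduced cells. Uchl1 read 11.09 to 11.61 and 12.41 to 12.82. Insm1 and Snap25 overlapped. Col1a1, Col1a2, Col3a1 and Lum (fibroblast) and Pecam1, Cdh5 and Tek (endothelium) were below the 40th percentile on every array. So were Ptprc and Cd79a (leukocyte) and Scgb1a1 (club cell). Pdgfra (fibroblast), Kdr (endothelium), Cd3e and Csf1r (leukocyte) and Sftpb (alveolar) were above it on every array, at 5.46 to 6.87. Cd68 (leukocyte) was above it on 1 array and Foxj1 (ciliated) on 7. Dcn, a fibroblast gene, read 9.32, 10.32 and 9.69 on preSC 3, L-Myc 2 and C-Myc 2 and 5.29 to 6.86 on the other arrays. Sftpc, an alveolar gene, read 10.68, 10.59 and 11.10 on C-Myc 1, N-Myc 1 and N-Myc 2 and 6.06 to 8.42 elsewhere. The summed level of the 6 fibroblast markers ran from 7.92 to 9.60 in preSC and from 7.59 to 10.47 in the transduced cells. That of the 4 club, alveolar and ciliated markers ran from 7.80 to 8.95 and from 7.88 to 11.20, of the 4 endothelial markers from 6.90 to 7.20 and from 6.86 to 6.98, and of the 5 leukocyte markers from 7.65 to 7.78 and from 7.72 to 7.97. The part of these cells in the results was not tested. In bulk RNA, fewer cells of a type and less RNA per cell cannot be told apart.

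More transport genes were higher than lower in each transduced group. In all, 15 members passed at least once: 6 import receptors, Xpo5, Ranbp1, Rangap1, 5 pore genes and Ranbp9. The other 36 of the 51 tested passed in none, beside 8505 of all 12976 genes tested. Members were thus not called more often than genes in general. Against preSC, L-Myc cells had 3 members higher (Ipo7, Ranbp1 and Tnpo1) and 1 lower (Nup50), which are 5.88% and 1.96% of the 51 tested. Over all 12976 genes tested, 5.44% were higher and 8.03% lower in the same comparison. C-Myc cells had 8 members higher (Ipo4, Ipo5, Ipo7, Tnpo1, Ranbp1, Ranbp2, Nup43 and Nup107), or 15.7%, beside 9.91% of all genes. They had 2 lower (Kpna6 and Ranbp9), or 3.92%, beside 13.6% of all genes. N-Myc cells had 10 higher (Ipo4, Ipo5, Ipo7, Tnpo1, Kpna3, Xpo5, Ranbp1, Rangap1, Nup43 and Nup210l), or 19.6%, beside 12.5% of all genes. Kpna6 was the single member lower there, or 1.96%, beside 16.4%. The share of members called higher in L-Myc cells was thus close to that of all genes, and in the other 2 groups it was above it. The C-Myc share depends on both C-Myc arrays, which differed from each other, as described below. The lower calls were a smaller share than among all genes in each group. Nothing in these counts is a test of the list. By the labels, the RNA type differs between preSC and both the C-Myc and N-Myc cells but not between preSC and L-Myc cells, and it cannot be told apart from the MYC protein in these counts.

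Across the 51 tested members the median difference from preSC was 0.13 in L-Myc, 0.22 in C-Myc and 0.26 in N-Myc cells on the log2 scale. Over all genes tested it was -0.04, -0.05 and -0.03. The difference was above 0 in all 3 comparisons for 29 members, below 0 in all 3 for 9 members and of mixed sign for 13. Ipo7, Ranbp1 and Tnpo1 passed in all 3, 4 members passed in 2, and 8 in 1. The other 36 passed in none, beside 8505 of all 12976 genes tested. The 3 comparisons share the same preSC arrays, so they are given side by side and not as repeats of each other.

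These calls rest on few arrays. A call means an adjusted p under 0.05 from limma, two-sided, with 3 preSC arrays against 2 transduced arrays. When each array was left out in turn, 2 of the 25 calls passed in all 9 fits, those of Ipo7 and Tnpo1 in C-Myc cells. The number of members called then ran from 0 to 5 for L-Myc, 2 to 16 for C-Myc and 1 to 17 for N-Myc. The number of genes called moved as well. Without preSC 2, 0, 2 and 4 members passed, beside 600, 1360 and 1832 of all genes. With all 9 arrays it was 4, 10 and 11 members, beside 1748, 3049 and 3741 of all genes. The preSC 1 and preSC 2 arrays, and the N-Myc 1 and N-Myc 2 arrays, were far closer to each other than the other pairs. Between them 4 and 5 genes differed by over 2-fold, against 926 to 1417 in the other 4 within-group pairs. The labels do not say whether the close arrays come from separate cultures. With each close pair averaged to 1 sample, 0 members passed in any comparison, and over all genes 2, 2 and 0 did. This limit holds for every call below, and p-values measure only the spread between these arrays.

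**Figure D1:**
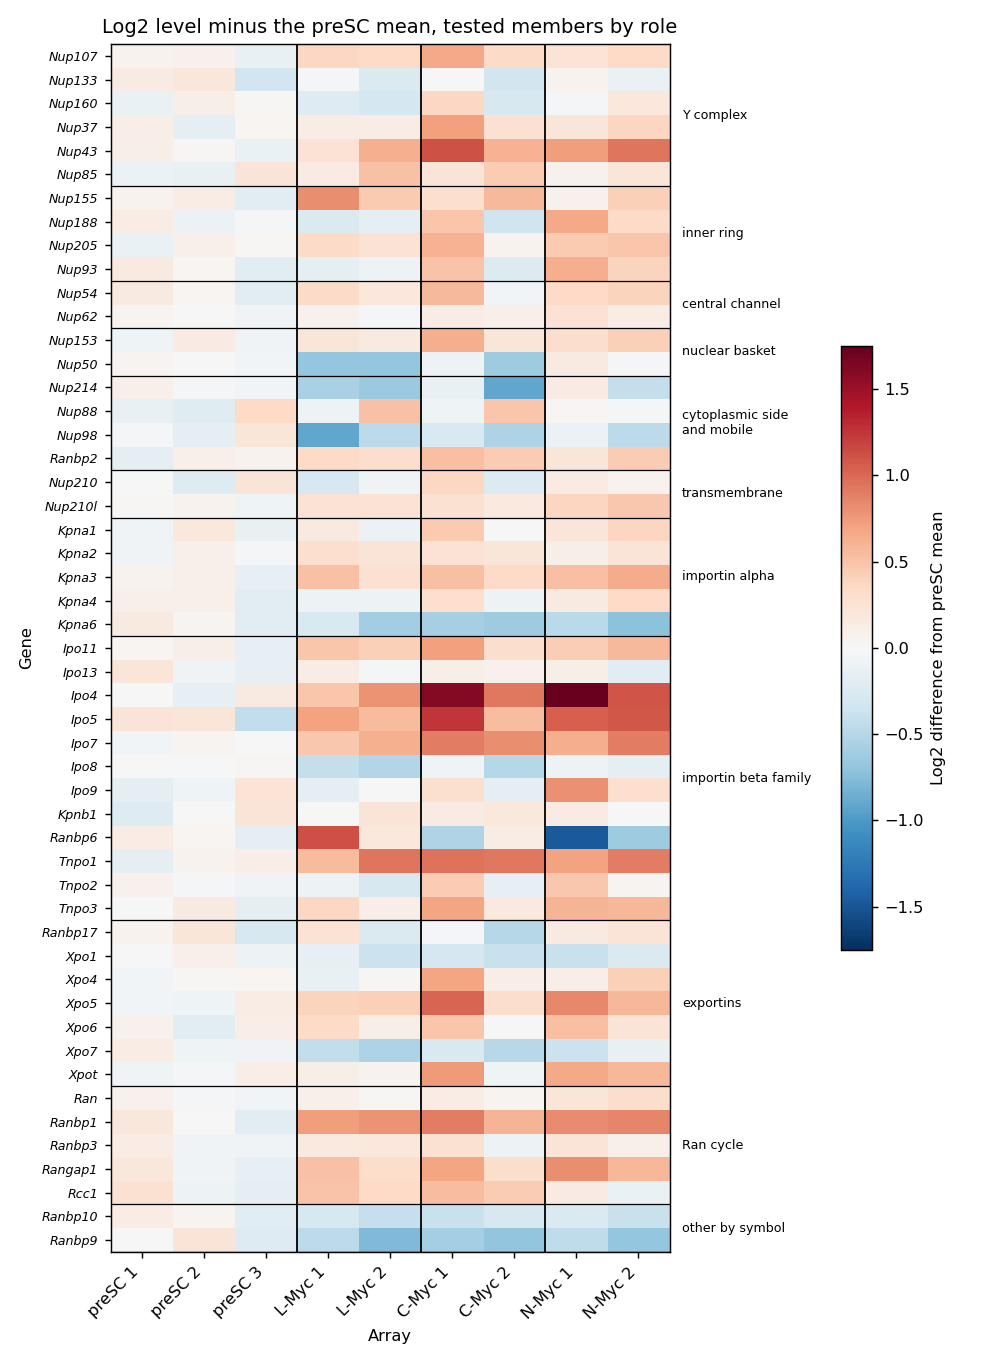
Log2 level of each of the 51 tested members on each of the 9 arrays, minus its preSC mean, with genes (rows) grouped by role and arrays (columns) by group; red is above and blue below the preSC mean. Ipo4, Ipo5, Ipo7, Tnpo1 and Ranbp1 are red on all 6 transduced arrays, and Ranbp6 runs from red in L-Myc 1 to blue in N-Myc 1.

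Promoter sequence is shown for 4 members as a description, since MYC proteins are known to bind CACGTG. Binding was not tested, and the 4 do not stand for the members as a whole. The sequences run from 250 bases before to 30 bases after the annotated start, 5′ to 3′ on the gene's strand, as RefSeq gives them for GRCm38.p6. Capitals mark CACGTG, which is its own reverse complement, so a match on either strand is the same match. Ipo7 rose in all 3 transduced groups, Ipo4 rose in C-Myc and N-Myc cells, Ran passed in no comparison, and Ranbp1 rose in all 3 groups. They lie at chr7:110018065-110018344 (plus strand), chr14:55635655-55635934 (minus), chr5:129019906-129020185 (plus) and chr16:18248665-18248944 (minus).
Ipo7: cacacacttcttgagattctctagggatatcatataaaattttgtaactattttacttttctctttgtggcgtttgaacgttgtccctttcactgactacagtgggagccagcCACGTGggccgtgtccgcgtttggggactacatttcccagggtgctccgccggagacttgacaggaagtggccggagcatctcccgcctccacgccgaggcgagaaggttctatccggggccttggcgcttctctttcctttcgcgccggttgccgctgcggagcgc
Ipo4: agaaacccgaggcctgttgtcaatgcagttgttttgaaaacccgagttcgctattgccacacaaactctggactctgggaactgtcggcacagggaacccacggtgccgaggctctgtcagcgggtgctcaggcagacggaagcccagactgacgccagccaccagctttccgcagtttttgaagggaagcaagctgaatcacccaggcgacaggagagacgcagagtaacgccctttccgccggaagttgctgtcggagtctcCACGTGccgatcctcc
Ran: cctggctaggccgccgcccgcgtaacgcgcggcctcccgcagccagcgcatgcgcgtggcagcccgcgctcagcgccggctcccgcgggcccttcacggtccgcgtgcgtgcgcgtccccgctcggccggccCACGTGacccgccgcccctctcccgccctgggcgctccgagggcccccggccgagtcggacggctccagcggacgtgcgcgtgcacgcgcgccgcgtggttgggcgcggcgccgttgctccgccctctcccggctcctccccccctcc
Ranbp1: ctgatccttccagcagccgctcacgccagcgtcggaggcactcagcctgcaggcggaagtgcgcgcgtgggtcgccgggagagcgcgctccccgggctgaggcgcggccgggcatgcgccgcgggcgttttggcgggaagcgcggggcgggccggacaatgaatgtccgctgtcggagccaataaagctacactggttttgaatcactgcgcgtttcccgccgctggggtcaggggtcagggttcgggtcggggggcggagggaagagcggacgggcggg
The match begins at base -137 in Ipo7, 15 in Ipo4 and -118 in Ran, counted from the start, and the Ranbp1 sequence holds none. Of the 43 member genes with a promoter window of 300 bases (250 before to 50 after the start), 9 (20.9%) held CACGTG in at least 1 window, namely Ipo4, Ipo7, Tnpo2, Xpot, Ran, Ranbp2, Nup54, Nup93 and Nup188. Of all genes with such a window, 2187 of 27025 (8.09%) held it. Over all promoter windows of that length, 2349 of 32851 (7.15%) held it, and of the members' windows 9 of 50 (18%). Among member genes with a window it was found in 3 of the 9 called higher in at least 1 comparison and in 6 of the 30 called in none. A match is a description of letters, not of binding, and no match says only that these letters are not in the window.

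The Ran cycle had 5 tested members, and their differences from preSC were above 0 in all 3 comparisons. The median difference was 0.41 in L-Myc, 0.49 in C-Myc and 0.26 in N-Myc cells. Passing members were Ranbp1 in each group and, in N-Myc cells, Rangap1 too. That is 20%, 20% and 40% of the 5 called higher, beside 5.44%, 9.91% and 12.5% of all genes. None was lower, beside 8.03%, 13.6% and 16.4%. Ranbp1, which binds Ran-GTP in the cytoplasm and helps Rangap1 act on it, read 12.29, 12.09 and 11.89 in preSC, 12.82 and 12.88 in L-Myc, 12.98 and 12.68 in C-Myc cells, and in N-Myc cells 12.92 and 12.95. All 6 transduced arrays lay above all 3 preSC arrays. Its level rose by 0.76 (SE 0.16, adjusted p = 0.0249) in L-Myc, by 0.74 (SE 0.16, adjusted p = 0.0184) in C-Myc and by 0.84 (SE 0.16, adjusted p = 0.0110) in N-Myc cells, or 1.69-, 1.67- and 1.79-fold. Ranbp1 has a single probe set. The L-Myc call was lost without preSC 2, preSC 3 or any L-Myc or N-Myc array (adjusted p up to 0.113). The C-Myc call was lost without preSC 2 or C-Myc 1 (up to 0.0861), and the N-Myc call without either N-Myc array (up to 0.0783).

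Rangap1, the GTPase-activating protein of Ran, read 10.33, 10.07 and 9.99 in preSC, 10.65 and 10.44 in L-Myc, 10.82 and 10.44 in C-Myc cells, and in N-Myc cells 10.95 and 10.71. No transduced array overlapped preSC, and the N-Myc difference of 0.70 (SE 0.18, adjusted p = 0.0270) passed. The L-Myc difference of 0.41 (SE 0.18, adjusted p = 0.170) and the C-Myc difference of 0.50 (SE 0.18, adjusted p = 0.0853) did not. The N-Myc call was lost without preSC 2, preSC 3 or either N-Myc array (adjusted p up to 0.174), and the other 2 probe sets of the gene gave 0.34 and 0.60 there, neither of which passed.

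Ran itself, the GTPase that every receptor here answers to, read 13.33, 13.24 and 13.20 in preSC, 13.35 and 13.27 in L-Myc, 13.39 and 13.30 in C-Myc cells, and in N-Myc cells 13.46 and 13.57. The L-Myc and C-Myc arrays overlapped preSC and the N-Myc arrays did not. None of its differences passed: 0.05 in L-Myc (95% interval -0.22 to 0.33), 0.09 in C-Myc (-0.19 to 0.36) and 0.26 in N-Myc cells (-0.02 to 0.53). The L-Myc value turned to -0.04 after quantile normalization. Among 5 tested probe sets of Ran the dimmest passed in all 3 comparisons, at 0.61, 0.53 and 0.57 with p-values adjusted over probe sets of 0.0372, 0.0473 and 0.0321. Rcc1, the exchange factor that loads Ran on chromatin, read 10.03, 9.67 and 9.58 in preSC, 10.26 and 10.11 in L-Myc, 10.30 and 10.21 in C-Myc cells, and in N-Myc cells 9.90 and 9.65. L-Myc and C-Myc arrays lay above preSC and N-Myc arrays among them, with differences of 0.43 (95% interval 0.02 to 0.83, adjusted p = 0.144), 0.49 (0.09 to 0.89, adjusted p = 0.0775) and 0.01 (-0.39 to 0.42, adjusted p = 0.960). Ranbp3, a cofactor of Xpo1, differed by 0.18, 0.09 and 0.16, none of which passed.

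**Figure D2:**
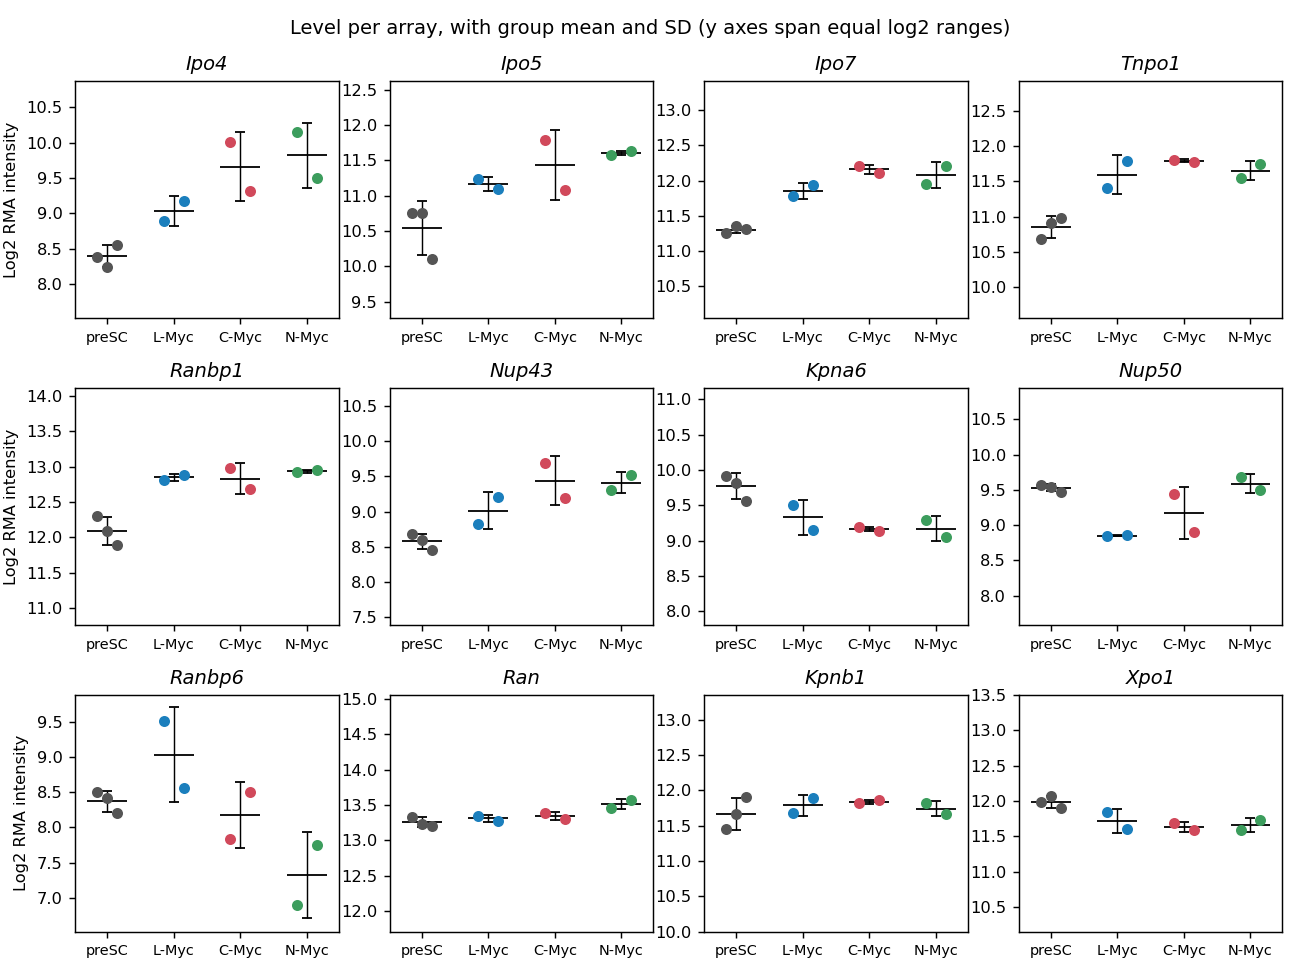
Log2 level of 12 members on each array (points), with the group mean (line) and SD (bar, n = 3 for preSC and 2 for the other groups); all y axes span the same log2 range. Ipo7, Tnpo1 and Ranbp1 have all transduced points above preSC, Kpnb1 overlaps preSC in every group, and Ranbp6 is highest in L-Myc 1 and lowest in N-Myc 1.

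The importin beta family carries cargo directly or, in the case of Kpnb1, through an importin alpha adaptor, and Ipo4 of this family had the largest rise of any member in both C-Myc and N-Myc cells. Of 12 tested members, 2 rose in L-Myc (16.7%, beside 5.44% of all genes), 4 in C-Myc (33.3%, beside 9.91%) and 4 in N-Myc cells (33.3%, beside 12.5%). None fell, beside 8.03%, 13.6% and 16.4% of all genes. The median difference was 0.35, 0.30 and 0.52. Ipo4, an importer of histones and ribosomal proteins, read 8.38, 8.24 and 8.56 in preSC, 8.89 and 9.18 in L-Myc, 10.01 and 9.31 in C-Myc cells, and in N-Myc cells 10.15 and 9.50. Every transduced array was above every preSC array. Ipo4 rose by 1.27 (SE 0.27, adjusted p = 0.0167) in C-Myc and by 1.43 (SE 0.27, adjusted p = 0.0104) in N-Myc cells, or 2.40- and 2.69-fold, while the L-Myc difference of 0.64 (SE 0.27, adjusted p = 0.159) did not pass. Its other probe set gave 0.65 in C-Myc, 0.81 in N-Myc and -0.07 in L-Myc cells, none of which passed. The C-Myc call was lost without preSC 1, preSC 2 or C-Myc 1 (adjusted p up to 0.0818) and the N-Myc call without N-Myc 1 (adjusted p = 0.0856).

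Ipo5, which imports ribosomal proteins and other cargo, read 10.76, 10.76 and 10.10 in preSC, 11.24 and 11.09 in L-Myc, 11.78 and 11.08 in C-Myc cells, and in N-Myc cells 11.58 and 11.63. The groups did not overlap preSC, although preSC 3 lay well below the other preSC arrays. Ipo5 rose by 0.89 (SE 0.27, adjusted p = 0.0499) in C-Myc and by 1.06 (SE 0.27, adjusted p = 0.0252) in N-Myc cells. The L-Myc difference was 0.63 (SE 0.27, adjusted p = 0.166). The C-Myc call held in 1 of the 9 fits that left out an array, the one without C-Myc 2, and its difference was 0.54 without C-Myc 1 (adjusted p up to 0.238 over the 9 fits). It was also lost without the filter on dim genes. The N-Myc call was lost without preSC 2 or either N-Myc array (up to 0.133). The second probe set of Ipo5 gave larger rises of 1.35, 1.53 and 1.66 in the same order, and the dimmest, with a mean of 5.05, fell by 0.54 in C-Myc cells.

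Ipo7, a receptor for ribosomal proteins and linker histones, read 11.25, 11.36 and 11.31 in preSC, 11.78 and 11.93 in L-Myc, 12.20 and 12.11 in C-Myc cells, and in N-Myc cells 11.95 and 12.21. The 3 preSC arrays lay close together, and all 6 transduced arrays were above them. The rises were 0.55 (SE 0.13, adjusted p = 0.0375), 0.85 (SE 0.13, adjusted p = 0.00682) and 0.77 (SE 0.13, adjusted p = 0.00838). Both other probe sets of the gene were higher too, by 0.51 and 1.00 in L-Myc, 0.96 and 1.32 in C-Myc and, for N-Myc cells, 1.17 and 1.65, all passing but the 0.51. In C-Myc cells the call held in all 9 fits that left out an array. The N-Myc call was lost without N-Myc 2 (adjusted p = 0.0723), and the L-Myc call without any preSC, L-Myc or N-Myc array (up to 0.177).

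Tnpo1, or transportin, which imports RNA-binding proteins and some ribosomal proteins, read 10.68, 10.91 and 10.97 in preSC, 11.40 and 11.79 in L-Myc, 11.81 and 11.77 in C-Myc cells, and in N-Myc cells 11.55 and 11.74. All transduced arrays were above preSC. It rose by 0.74 (SE 0.17, adjusted p = 0.0288), 0.94 (SE 0.17, adjusted p = 0.00977) and 0.79 (SE 0.17, adjusted p = 0.0142). A dimmer probe set gave 0.25, which did not pass, in L-Myc cells, and rises of 0.92 and 1.27 in C-Myc and N-Myc cells. The C-Myc call held in all 9 fits that left out an array. In N-Myc cells the call was lost without either N-Myc array (adjusted p up to 0.107), and in L-Myc cells without preSC 1, preSC 2, L-Myc 2 or either N-Myc array (up to 0.151).

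Kpnb1, importin beta itself, read 11.45, 11.66 and 11.90 in preSC, 11.68 and 11.90 in L-Myc, 11.82 and 11.86 in C-Myc cells, and in N-Myc cells 11.82 and 11.67. All 3 transduced groups overlapped preSC. Its differences were 0.12 (95% interval -0.27 to 0.50), 0.17 (-0.22 to 0.55) and 0.07 (-0.31 to 0.45), and none passed. The other 3 probe sets of Kpnb1 read differently: they rose by 0.83, 0.75 and 2.42 in C-Myc and by 0.89, 0.77 and 2.41 in N-Myc cells. In L-Myc cells they gave 0.43 and 0.38, which did not pass, and a rise of 1.86. On the brightest probe set, the remaining members of the family passed in no comparison. They were Ipo8, Ipo9, Ipo11, Ipo13, Tnpo2, Tnpo3 and Ranbp6. Ipo11, a receptor for ubiquitin-conjugating enzymes, differed by 0.46, 0.51 and 0.50 (adjusted p = 0.106, 0.0582 and 0.0553), with no overlap with preSC in any group, and its second probe set, with a mean of 5.34, rose by 0.96, 1.15 and 1.09. Tnpo3, which imports splicing factors, reached 0.59 in N-Myc cells (adjusted p = 0.0537), and of its other 2 probe sets the brighter rose by 0.83, 1.04 and 1.11 while the dimmer did not pass. Ipo8, a close relative of Ipo7, differed by -0.46, -0.29 and -0.13, none of which passed. Of its other probe sets, one of mean 6.56 did not pass either and one of mean 5.10 fell by 0.92, 0.88 and 0.76. Tnpo2, a relative of Tnpo1, differed by -0.19, 0.15 and 0.26 without passing, while its dimmest tested probe set rose by 1.10, 1.27 and 1.495.

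Importin alpha proteins link cargo that carries a classical localization signal to Kpnb1. Of 5 tested, none passed in L-Myc cells, Kpna6 was lower in C-Myc cells, and in N-Myc cells Kpna3 was higher and Kpna6 lower. Each such call is 20% of the 5. Of all genes, 5.44%, 9.91% and 12.5% were higher and 8.03%, 13.6% and 16.4% lower in the 3 comparisons. The median difference of the 5 importin alpha genes was 0.03, 0.23 and 0.25. Kpna6 read 9.92, 9.82 and 9.56 in preSC, 9.51 and 9.15 in L-Myc, 9.19 and 9.14 in C-Myc cells, and in N-Myc cells 9.29 and 9.05. All 6 transduced arrays were below preSC, by a narrow margin for L-Myc 1. The level fell by 0.60 (SE 0.17) in both C-Myc and N-Myc cells, with adjusted p = 0.0419 and 0.0376, and the L-Myc difference of -0.44 (adjusted p = 0.136) did not pass. This direction belonged to the brighter of its 2 probe sets. The dimmer, with a mean of 5.89, rose by 0.51 in C-Myc and 0.63 in N-Myc cells (p adjusted over probe sets 0.0293 and 0.0123). Neither fall passed once arrays were centred on their medians or quantile normalized, and leaving out preSC 1, preSC 2 or any C-Myc or N-Myc array ended the C-Myc call (adjusted p up to 0.118). The N-Myc call was lost without preSC 1, preSC 2 or either N-Myc array (up to 0.216).

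Kpna3 had a mean of 9.87 ± 0.13 (SD, n = 3) in preSC and 10.46 ± 0.09 (n = 2) in N-Myc cells, a rise of 0.59 (SE 0.15, adjusted p = 0.0235). Its L-Myc and C-Myc differences of 0.39 and 0.43 did not pass (adjusted p = 0.122 and 0.0702). Both other probe sets of Kpna3 rose more, by 1.26 and 1.85 in L-Myc, 1.46 and 2.10 in C-Myc and, for N-Myc cells, 1.47 and 2.11. The N-Myc call on the brightest was lost without any preSC or N-Myc array (adjusted p up to 0.145). Kpna2, the importin alpha most tied to dividing cells, read 12.80, 12.96 and 12.84 in preSC, 13.17 and 13.10 in L-Myc, 13.12 and 13.08 in C-Myc cells, and in N-Myc cells 12.97 and 13.10. Each transduced array was above preSC, but the differences of 0.26 (95% interval -0.01 to 0.54), 0.23 (-0.05 to 0.51) and 0.17 (-0.11 to 0.45) did not pass. Kpna1 and Kpna4 differed by -0.09 to 0.29 over the 3 comparisons on their brightest probe sets, and none of these values passed. The dimmer sets of both genes gave rises. For Kpna1, the fourth probe set by brightness rose by 0.62, 1.06 and 0.93 and the fifth by 1.00, 0.97 and 1.06. The second probe set of Kpna4, with a mean of 5.73, rose by 0.82 in C-Myc and 1.01 in N-Myc cells.

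Exportins carry cargo out together with Ran-GTP. Of 7 tested, none passed in L-Myc or C-Myc cells, beside 5.44% and 9.91% of all genes higher and 8.03% and 13.6% lower. Xpo5 alone passed in N-Myc cells, as a rise. That is 14.3% of the 7, near the 12.5% of all genes, and none fell, beside 16.4%. The median difference of the 7 exportins was 2.28e-04, 0.24 and 0.27. Xpo5, the exporter of microRNA precursors, had a mean of 9.06 ± 0.12 (SD, n = 3) in preSC, 9.47 ± 0.02 (n = 2) in L-Myc, 9.73 ± 0.50 in C-Myc and 9.77 ± 0.19 in N-Myc cells. The N-Myc rise was 0.71 (SE 0.22, adjusted p = 0.0452). The C-Myc difference of 0.67 (adjusted p = 0.0619) and the L-Myc difference of 0.41 (adjusted p = 0.251) did not pass. Its second probe set rose by 1.07 in C-Myc and 1.22 in N-Myc cells. Leaving out any preSC, L-Myc or N-Myc array ended the N-Myc call (adjusted p up to 0.242).

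Xpo1, the exporter of ribosomal subunits and of proteins with a leucine-rich signal, read 11.98, 12.07 and 11.90 in preSC, 11.84 and 11.60 in L-Myc, 11.68 and 11.59 in C-Myc cells, and in N-Myc cells 11.59 and 11.73. All transduced arrays were below preSC on this probe set, yet the differences of -0.26 (95% interval -0.58 to 0.05), -0.35 (-0.66 to -0.03) and -0.33 (-0.64 to -0.01) did not pass (adjusted p = 0.236, 0.1004 and 0.108). A second probe set of nearly the same brightness gave the other sign, at 0.34, 0.38 and 0.39, and did not pass either. The third, with a mean of 6.34, went with the brightest at -0.52, -0.51 and -0.54, again without passing. The probe sets thus differ in sign, and none passed. Xpo7, an exportin of broad cargo range, had probe sets that disagreed too. Its brightest probe set gave -0.49, -0.38 and -0.25, none passing, while the second rose by 0.93, 1.05 and 1.25. Cse1l, the exportin that returns importin alpha to the cytoplasm and lies outside the symbol rule, read 11.14, 11.19 and 11.50 in preSC, 11.30 and 11.85 in L-Myc, 12.02 and 11.88 in C-Myc cells, and in N-Myc cells 11.67 and 11.79. The C-Myc and N-Myc arrays lay above preSC and the L-Myc arrays overlapped it. Cse1l rose by 0.68 (SE 0.20, adjusted p = 0.0460) in C-Myc cells, and its differences of 0.30 in L-Myc and 0.45 in N-Myc cells did not pass. That call was lost without preSC 1, preSC 2 or any C-Myc or N-Myc array (adjusted p up to 0.165), and without the filter on dim genes.

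**Figure D3:**
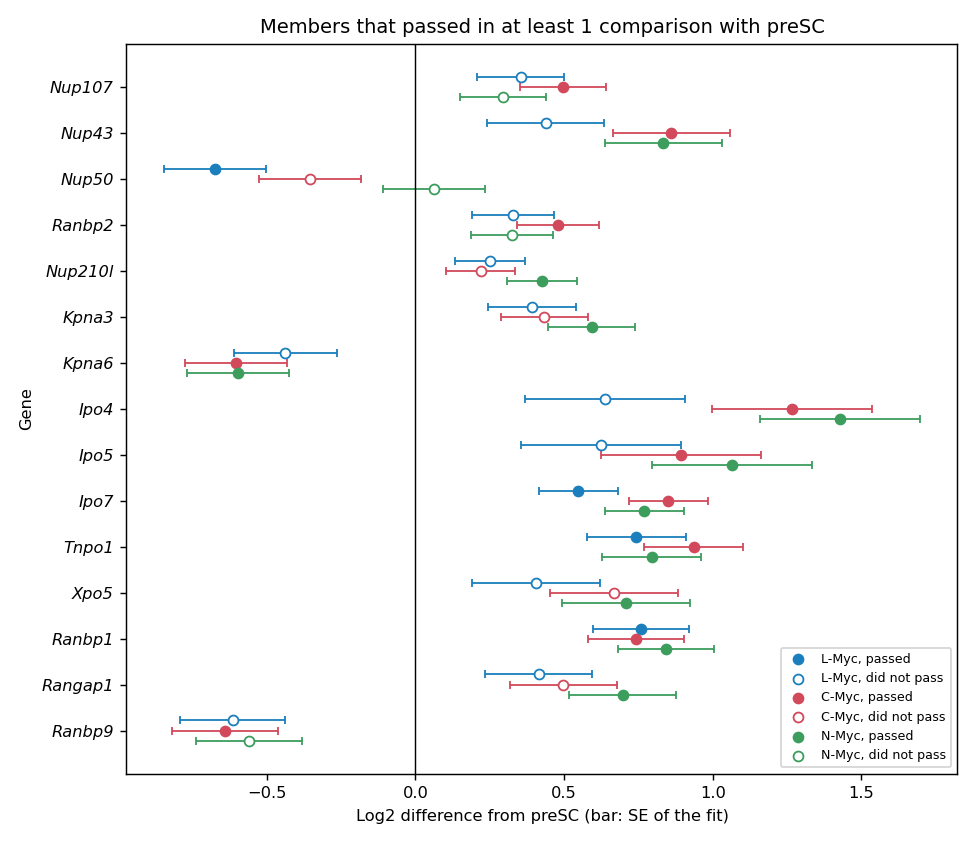
Log2 difference from preSC (x axis, bar: SE of the fit) for the 15 members that passed in at least 1 comparison, by gene, for L-Myc (blue), C-Myc (red) and N-Myc (green); filled points passed and open points did not. Ipo7, Tnpo1 and Ranbp1 are filled in all 3 colours, and Nup50, Kpna6 and Ranbp9 are the only genes with filled points below 0.

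The 20 tested pore genes, those with a Nup symbol and Ranbp2, had 0 higher and 1 lower (5%) in L-Myc, 3 higher (15%) and 0 lower in C-Myc, and 2 higher (10%) and 0 lower in N-Myc cells. The shares of all genes were 5.44% higher and 8.03% lower, 9.91% and 13.6%, and 12.5% and 16.4%, so the higher calls were near the background in C-Myc and N-Myc cells. Pore genes had median differences of 0.16, 0.21 and 0.27 in the 3 comparisons. The Y complex, the outer scaffold of the pore, had 6 tested members with medians of 0.23, 0.41 and 0.22. Nup43 read 8.68, 8.59 and 8.46 in preSC, 8.82 and 9.20 in L-Myc, 9.69 and 9.19 in C-Myc cells, and in N-Myc cells 9.31 and 9.51. Every transduced array was above preSC. It rose by 0.86 (SE 0.20, adjusted p = 0.0209) in C-Myc and by 0.83 (SE 0.20, adjusted p = 0.0202) in N-Myc cells, and its L-Myc difference was 0.44 (adjusted p = 0.182). Its other probe set gave 0.59, which passed, and 0.50, which did not. The C-Myc call was lost without any preSC array or C-Myc 1 (adjusted p up to 0.0965), and the N-Myc call without preSC 2, preSC 3 or either N-Myc array (up to 0.135). Nup107, the name-giving subunit of the complex, had a mean of 9.92 ± 0.11 (SD, n = 3) in preSC and 10.42 ± 0.23 (n = 2) in C-Myc cells, a rise of 0.50 (SE 0.14, adjusted p = 0.0452). That call held only without C-Myc 2 among the 9 fits that left out an array (adjusted p up to 0.189). Nup37, Nup85, Nup133 and Nup160 differed by -0.27 to 0.49 on their brightest probe sets and did not pass. Nup133 had 2 other probe sets that passed in all 3 comparisons with opposite signs. The second fell by 0.96, 1.01 and 0.78, and the third rose by 1.07, 0.96 and 1.11.

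The inner ring anchors the scaffold to the membrane, and its 4 tested members passed in no comparison on their brightest probe sets. Their medians were 0.08, 0.23 and 0.48. Nup155 had the largest difference in L-Myc cells, 0.64 (SE 0.19, adjusted p = 0.0654), and Nup93 in N-Myc cells, 0.51 (SE 0.23, adjusted p = 0.136). The second probe set of Nup188, with a mean of 5.29, fell by 0.80 in L-Myc cells. That of Nup205, with a mean of 6.33, rose by 0.46 in N-Myc cells. The channel proteins Nup54 and Nup62 differed by 0.02 to 0.37 on their brightest probe sets and did not pass. For Nup62 the next 3 probe sets, with means of 10.89, 10.69 and 10.08, all rose in the 3 comparisons, by 0.84, 0.90 and 0.97, by 1.23, 1.31 and 1.34, and by 0.63, 0.67 and 0.80. Its dimmest tested probe set, with a mean of 5.40, fell by 0.49 in L-Myc cells. For Nup54 the dimmest of 5 rose by 1.83, 1.88 and 1.70, and the others did not pass. In the nuclear basket, Nup50, which helps importin alpha release its cargo, read 9.57, 9.54 and 9.47 in preSC, 8.85 and 8.86 in L-Myc, 9.43 and 8.91 in C-Myc cells, and in N-Myc cells 9.68 and 9.50. The L-Myc arrays lay well below preSC, the C-Myc arrays split, and the N-Myc arrays overlapped preSC. The L-Myc level fell by 0.67 (SE 0.17, adjusted p = 0.0423), against differences of -0.35 (adjusted p = 0.173) in C-Myc and 0.06 (adjusted p = 0.806) in N-Myc cells. Here too the probe sets disagreed. The other pair gave 0.63, which did not pass, and 0.95, which did (p adjusted over probe sets 0.0182), in the same L-Myc cells. The fall was lost without any preSC, L-Myc or N-Myc array (adjusted p up to 0.151), and after centring or quantile normalization. Nup153, the other basket member, differed by 0.18, 0.43 and 0.36 and did not pass. Its second probe set fell by 0.55 in L-Myc cells and its dimmest tested probe set rose by 1.00, 1.24 and 1.28.

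On the cytoplasmic side, Ranbp2, which forms the filaments of the pore and is a SUMO ligase, had a mean of 10.76 ± 0.13 (SD, n = 3) in preSC and 11.25 ± 0.06 (n = 2) in C-Myc cells. The rise of 0.48 (SE 0.14, adjusted p = 0.0430) passed in none of the 9 fits that left out an array (adjusted p 0.0592 to 0.140). Of the other probe sets of Ranbp2, the second-brightest gave 0.09 and did not pass, and the dimmer pair rose by 1.27 and 1.33 in C-Myc cells. Nup98, a mobile nucleoporin, had the lowest member difference in L-Myc cells, -0.69 (SE 0.20, adjusted p = 0.0666). Nup214 and Nup88, the docking platform for exported messenger RNA, differed by -0.60 to 0.21 and did not pass. Of the membrane proteins, Nup210l, a relative of Nup210, had a mean of 6.19 ± 0.07 (SD, n = 3) in preSC and 6.62 ± 0.07 (n = 2) in N-Myc cells. It rose there by 0.43 (SE 0.12, adjusted p = 0.0324), a call lost without any preSC or N-Myc array (adjusted p up to 0.181). Nup210 differed by -0.17, 0.06 and 0.10.

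Ranbp9 and Ranbp10 carry the symbol without being transport receptors: they are scaffold proteins of a ubiquitin ligase. Ranbp9 read 11.21, 11.43 and 10.99 in preSC, 10.75 and 10.43 in L-Myc, 10.62 and 10.51 in C-Myc cells, and in N-Myc cells 10.76 and 10.53. All 6 transduced arrays were below preSC. The level fell by 0.64 (SE 0.18, adjusted p = 0.0387) in C-Myc cells, and the values of -0.62 in L-Myc (adjusted p = 0.0613) and -0.56 in N-Myc cells (adjusted p = 0.0515) missed the threshold. Its other probe set gave -0.54 in C-Myc cells and did not pass. The C-Myc call was lost without preSC 1, preSC 2 or any C-Myc or N-Myc array (adjusted p up to 0.115), and after centring. Ranbp10 differed by -0.34, -0.33 and -0.32, none of which passed.

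Centring the arrays bears on every direction above. Setting each array to the median of the genes tested moved the median of all genes by 0.14 in L-Myc, 0.17 in C-Myc and 0.17 in N-Myc cells. The share of called genes that were higher then went from 40.4% to 62.0%, from 42.2% to 63.4% and from 43.2% to 63.7%. Members called higher and lower became 4 and 0, 15 and 0, and 19 and 0. Over all genes, 1144, 2064 and 2662 were then higher and 702, 1192 and 1518 lower. The falls of Nup50, Kpna6 and Ranbp9 thus lost their calls while their sign stayed. Relative to the median of all genes, the members' median was higher by 0.17, 0.27 and 0.29 under the deposited scaling.

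The probe set that stands for a gene also mattered. Of 39 members with a second tested probe set, the second gave the higher difference from preSC in 23 in L-Myc, 26 in C-Myc and 26 in N-Myc cells. The median difference of these members was 0.08, 0.17 and 0.26 on the brightest and 0.24, 0.41 and 0.58 on the second. The same held over all 6375 genes with such a pair: -0.07, -0.09 and -0.09 on the brightest and 0.07, 0.08 and 0.09 on the second, which was the higher in 59.6%, 60.7% and 60.1% of them. Of the 36 members called in no comparison on the brightest probe set, 27 had another tested one, and in 19 of these (70.4%) at least 1 other probe set passed in at least 1 comparison. Over all genes this held for 2007 of 3868 (51.9%), with no allowance for how many probe sets a gene has. The change was a rise in 17 of the 27 members (63.0%) and a fall in 5 (18.5%), beside 37.8% and 19.4% of all genes, and some had both. The thresholds here are not alike: p-values were adjusted over genes for the brightest probe set and over all probe sets for the others. In the limma fit over all probe sets, some brightest sets of these members passed too. Examples are Ipo11 and Tnpo3 in N-Myc (adjusted p = 0.049 and 0.046) and Nup155 and Nup98 in L-Myc cells (0.048 and 0.049). A member that did not pass on its brightest probe set is therefore not shown to be unchanged. The brightest and second probe sets of a member had opposite signs in 14, 9 and 10 of the 39. With the second-brightest in place of the brightest, 10, 16 and 18 of these 39 members passed. Over all genes tested on their second-brightest probe set, 1815, 2248 and 2572 passed. How many genes were tested there is not given here, so these counts carry no share to set beside that of the members. On the mean of a gene's probe sets the L-Myc calls of Ipo7, Tnpo1 and Nup50, the C-Myc calls of Kpna6 and Ranbp9 and the N-Myc call of Kpna6 were lost. Where the probe sets lie along the transcripts was not analysed here, and the part of the 5′ to 3′ difference between preSC and transduced arrays in this was not tested.

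**Figure D4:**
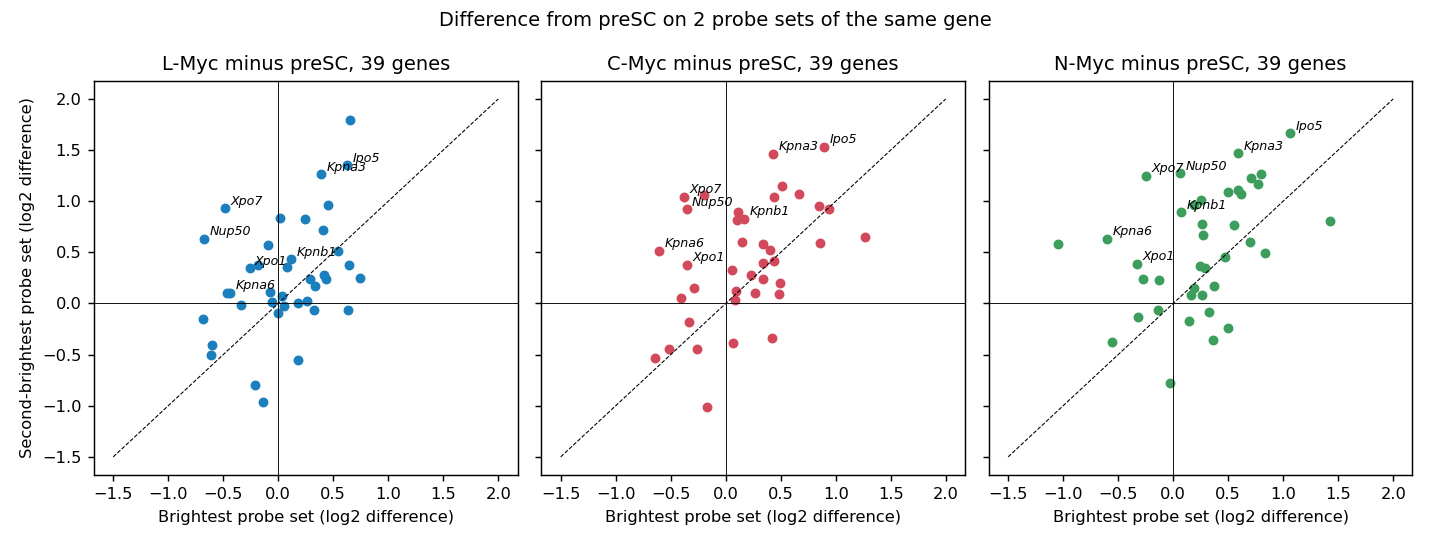
Log2 difference from preSC on the brightest (x axis) and second-brightest (y axis) probe set of each of 39 members, with 1 panel per transduced group; the dashed line marks equal values. More points lie above the line than below in each panel, and Nup50, Kpna6, Xpo1 and Xpo7 lie left of 0 and above 0 in the C-Myc panel.

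Between the transduced groups no member passed. The adjusted threshold was met by 0% of all genes in C-Myc against L-Myc, 0% in N-Myc against L-Myc and 0% in C-Myc against N-Myc cells, by limma over 12976 genes. At an unadjusted p under 0.05 the same comparisons gave 0 of 51 members beside 4.64% of all genes, 6 of 51 beside 18.7%, and 1 of 51 beside 4.17%. The 6 members of N-Myc against L-Myc were Ipo4, Ipo9, Nup50, Nup93 and Nup188, all higher in N-Myc, and Ranbp6, lower. The 1 member of C-Myc against N-Myc was Rcc1, higher in C-Myc cells by 0.48 (SE 0.19, adjusted p = 0.936). When C-Myc 1 or C-Myc 2 was left out, 3 members passed in N-Myc against L-Myc, namely Nup50, Nup188 and Ranbp6, or 5.88% of the members beside 8.72% of all genes in the same fits. Here too the RNA type in the labels differs, between L-Myc and the other transduced groups, and cannot be told apart from the MYC protein.

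Ranbp6, an importin closely related to Ipo5, had the widest range of any member over the 9 arrays and was singled out after its values were seen. It read 8.50, 8.41 and 8.21 in preSC, 9.50 and 8.55 in L-Myc, 7.84 and 8.50 in C-Myc cells, and in N-Myc cells 6.90 and 7.75. Both L-Myc arrays were above preSC and both N-Myc arrays below, and in each of those groups the arrays differed from each other, by 0.95 in L-Myc and 0.86 in N-Myc cells. The N-Myc minus L-Myc difference was -1.70 (SE 0.40, 95% interval -2.63 to -0.77, adjusted p = 0.165) and did not pass. Leaving out an array of either group moved it between -2.18 and -1.23. The dimmer probe set of Ranbp6 was above preSC in all groups, at 1.80 in L-Myc and 1.06 in C-Myc cells, which passed, and 0.58 in N-Myc cells, which did not, so the N-Myc level was below preSC on the brighter probe set alone. The order of the 3 transduced groups, L-Myc, C-Myc, N-Myc from high to low, was the same on both.

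The 2 C-Myc arrays differed from each other more than any other within-group pair, both in these genes and over all genes tested. Their median absolute difference over the tested members was 0.41, against 0.12 to 0.20 in the other 5 pairs. Over all genes it was 0.32, against 0.13 to 0.26. C-Myc 1 was higher than C-Myc 2 for 45 of the 51 members (88.2%), beside 48.2% of all genes. Nup188 was 0.84 higher, Xpot, the exporter of transfer RNA, 0.83 higher and Nup93 0.74 higher, whereas Ranbp6 was lower by 0.66. The difference followed that between N-Myc and L-Myc cells: across the 51 members Pearson's r was 0.79 and Spearman's rho 0.80, and 42 of the 51 (82.4%) had the same sign. Over all genes r was 0.77, rho 0.68 and the same-sign share 73.1%. This comparison was made after the arrays had been looked at, all points come from the same 6 arrays, and no test was made. Sftpc was high on C-Myc 1 and both N-Myc arrays and Dcn on C-Myc 2 and L-Myc 2, as given above, and their part in the difference was not tested. The count of 10 members called in C-Myc against preSC depends on both arrays. It was lower without C-Myc 1 and higher without C-Myc 2, as was the count over all genes. The mean level of the 51 members was 10.28 on C-Myc 1 and 9.97 on C-Myc 2, beside 9.87 to 9.95 in preSC. Leaving out an array moved the C-Myc difference of Ipo4 between 0.92 and 1.61, and that of Ipo7 between 0.81 and 0.90.

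**Figure D5:**
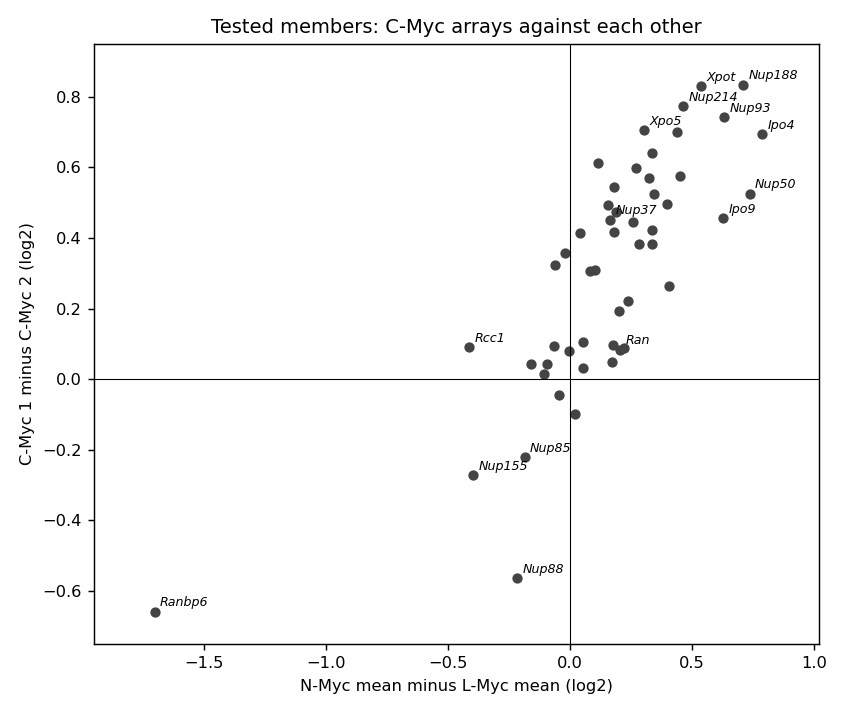
For each of the 51 tested members, the log2 difference between the C-Myc arrays (C-Myc 1 minus C-Myc 2, y axis) against the log2 difference between group means (N-Myc minus L-Myc, x axis). Of the 51 points 45 lie above 0 on the y axis, and Ranbp6 lies alone at the lower left.

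Pore and transport genes outside the symbol rule were listed as well, 34 in all, of which 28 had a probe set and passed the filter. Of these, 5 were higher (17.9%) and 1 lower (3.57%) in L-Myc, beside 5.44% and 8.03% of all genes. In C-Myc cells 7 were higher (25%) and 1 lower (3.57%), beside 9.91% and 13.6%, and in N-Myc cells 7 (25%) and 2 (7.14%), beside 12.5% and 16.4%. The list had medians of 0.25, 0.36 and 0.34. It was drawn up with earlier results of these data known, and its counts are not a test of it. Pom121, a membrane protein that anchors the pore, read 10.89, 10.90 and 10.96 in preSC, 9.71 and 9.64 in L-Myc, 9.96 and 9.65 in C-Myc cells, and in N-Myc cells 9.83 and 9.63. The 3 preSC arrays lay close together and far above the rest. Its level fell by 1.25 (SE 0.14, adjusted p = 0.00526), 1.12 (SE 0.14, adjusted p = 0.00388) and 1.19 (SE 0.14, adjusted p = 0.00320), and its second probe set fell by 1.10, 1.06 and 1.13. These falls passed in all 9 fits that left out an array. Heatr3, which escorts the ribosomal protein Rpl5 into the nucleus, read 7.78, 8.10 and 7.86 in preSC, 8.9999 and 8.90 in L-Myc, 9.89 and 9.05 in C-Myc cells, and in N-Myc cells 9.74 and 9.90. All 6 transduced arrays were above preSC. It rose by 1.04 (SE 0.24, adjusted p = 0.0331), 1.56 (SE 0.24, adjusted p = 0.00666) and 1.91 (SE 0.24, adjusted p = 0.00380). The C-Myc and N-Myc rises passed in all 9 fits that left out an array, and the L-Myc rise was lost without any preSC, L-Myc or N-Myc array (adjusted p up to 0.117).

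Seh1l, a Y-complex subunit, rose by 0.74, 0.93 and 0.80 (SE 0.14, adjusted p = 0.0180, 0.00638 and 0.00884). The dimmest of its 6 tested probe sets gave -0.74 in L-Myc cells, which did not pass, and fell by 1.05 and 0.72 in C-Myc and N-Myc cells. The L-Myc call was lost without preSC 1 or either L-Myc array (adjusted p up to 0.0800), and the N-Myc call without N-Myc 2 (adjusted p = 0.0768). Zc3hc1, a basket protein, rose by 0.69, 0.89 and 0.84 (SE 0.15, adjusted p = 0.0260, 0.00834 and 0.00866). The L-Myc call was lost without any preSC, L-Myc or N-Myc array (adjusted p up to 0.113), and the N-Myc call without either N-Myc array (up to 0.0723). Eny2, shared by the SAGA and messenger RNA export complexes, rose by 1.01 (SE 0.22, adjusted p = 0.0255) in L-Myc and by 0.80 (SE 0.22, adjusted p = 0.0364) in C-Myc cells, and its N-Myc difference of 0.54 (adjusted p = 0.0983) did not pass. The L-Myc call was lost without preSC 2 or any L-Myc or N-Myc array (adjusted p up to 0.105), and the C-Myc call without preSC 2, preSC 3 or any C-Myc or N-Myc array (up to 0.120). Aaas, a pore protein of the Ndc1 anchor, rose by 0.89 (SE 0.21, adjusted p = 0.0203) in N-Myc cells and did not pass in L-Myc (0.47) or C-Myc cells (0.59). The N-Myc call was lost without preSC 2 or either N-Myc array (adjusted p up to 0.125). With the close pairs of arrays averaged, none of the calls named here for genes outside the rule passed.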

How the data were processed

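Labels and replicate numbers came from the sample titles. The table holds log2 values deposited by the authors, made with RMA in the affy package under R 3.0.1 per the submitters' processing notes. RMA gives all arrays a common distribution, so a shift shared by most transcripts would not be seen. Array medians were 6.02 to 6.07, and no further scaling was applied. The number of arrays limits the precision.

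Probe sets were named through GEO's platform annotation, and all 53 members matched a RefSeq gene with no symbol changed. Another 3 probe sets that match the symbol rule but carry several symbols were left out. Group means were fitted to all 9 arrays over all 12976 genes with limma 3.58.1 in R 4.3.3 (lmFit, contrasts.fit, eBayes, 5 residual degrees of freedom), with Benjamini-Hochberg adjustment over those genes. The script was tested on simulated data. Probe sets other than the brightest were fitted in the same way over all probe sets. Intervals are 95%, from the fit.

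Members, gene lists and alternatives were chosen with earlier results of these data known. Members named with the value on each array are Ran, Rcc1, Rangap1, Ranbp1, Kpna2, Kpnb1, Xpo1, Cse1l and, per comparison with preSC, up to 6 rises and 6 falls past the threshold; of other pore genes, the up to 4 largest changes per comparison, with all calls of those genes. Alternatives were other probe sets, scalings and filters, averaged close arrays, the replicate number as a block, the transduced arrays alone and each array left out.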

Additional observations from a re-analysis of the deposited data

How the results depend on the processing

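Between the transduced groups, 0 members passed under every alternative run, except 3 in N-Myc against L-Myc cells without C-Myc 1 or C-Myc 2 (leave-one-out range 0 to 3). Against preSC, the L-Myc, C-Myc and N-Myc counts of 4, 10 and 11 became 10, 16 and 18 on the second-brightest probe set (39 members tested), and 0, 0 and 0 with the close arrays averaged. Over all genes the main counts were 1748, 3049 and 3741. On the mean of probe sets 7, 15 and 21 members passed, beside 1736, 2858 and 3529 of all genes. With arrays centred 4, 15 and 19 members passed, beside 1846, 3256 and 4180 of all genes. Leaving out each array gave 0 to 5, 2 to 16 and 1 to 17. Deviations of same-numbered arrays correlated at over 0.1 in 9 of 12 pairs. In a group of 2 arrays the deviations are mirror images. The values among the transduced groups (0.44, 0.14 and 0.14) therefore repeat for both numbers, and the 9 are not all separate pairs. The 3 pairs with preSC 2 were below 0 (-0.68 to -0.01), and the labels name nothing that a number shares. The numbers were thus not taken to pair the arrays. With the replicate block, the counts were 1, 6 and 8, and preSC 3 is alone in its block. The calls lost there were Ipo7, Nup50 and Ranbp1 in L-Myc, Ipo5, Nup43, Nup107 and Ranbp2 in C-Myc, and Kpna3, Nup43, Nup210l and Xpo5 in N-Myc cells. Of the named genes' values, 797 kept direction and side of the threshold, 227 lost a call, 16 gained one and 16 changed sign. Sign changes on the second-brightest probe set were Nup50 in L-Myc (0.63), Ran in L-Myc (-0.027), Xpo1 (0.34, 0.38 and 0.39) and Kpna6 in C-Myc (0.51) and N-Myc cells (0.63). On the mean of probe sets they were Nup50 in L-Myc (0.30) and Kpna6 in N-Myc cells (0.018), and with quantile normalization Ran in L-Myc cells (-0.038). In N-Myc cells Rcc1 was -0.075 with the replicate block and -0.11 to 0.15 with an array left out, and Kpnb1 -0.039 to 0.19. The cause of these changes was not tested. Where an array left out leaves a group with 1 array, that array is assumed to vary like the other groups.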
